A study of Mus musculus with 96 samples.

Results

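Cyclin-dependent kinase (CDK) inhibitors were examined in mouse embryonic stem cells (ESCs) in which the Polycomb protein RYBP, its partner WDR5, or RYBP together with STAT3 had been altered. The genes were Cdkn2a, Cdkn2b, Cdkn2c, Cdkn2d, Cdkn1b and Cdkn1c, chosen by symbol, and these 6 were found among the 37620 genes of each of 7 tables of RNA-seq counts. Peak lists of histone marks and chromatin proteins at the same loci were also read. The study asks how RYBP acts at active chromatin and super-enhancers in ESCs.

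Each RNA-seq comparison had 2 libraries per group and was made within its own table. Rybp-/- ESCs of the R7.15 line, in which floxed Rybp was deleted with 5 µM 4-hydroxytamoxifen (4-OHT) for 4 days, were compared with Rybp+/+ ESCs of the same floxed line. R1 ESCs with an shRNA against Rybp (shRybp) or against Wdr5 (shWdr5) were each compared with the empty vector (shEV). R1 ESCs carrying a change named in the labels only as TF-AA mutation were compared with WT ESCs. R7.15 ESCs of genotype RYBPfl/fl Rosa26::CreERT2 that express RYBP with a deletion of 21 amino acids (RYBP phase disruption) were compared with the same line expressing wild-type RYBP (WT.RYBP), and both of these groups had received 4-OHT. J1 ESCs with a Tet-on RYBP were compared after doxycycline (DOX) or vehicle. The rTRS line, which carries DOX-induced Rybp and Stat3, was compared with DOX or without it (NTC). The labels do not say whether the 2 libraries of a group came from separate cultures, so the p-values below measure the spread between these libraries only.

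CDK inhibitors hold cells in G1. The INK4 proteins p16INK4a (from Cdkn2a), p15INK4b (Cdkn2b), p18INK4c (Cdkn2c) and p19INK4d (Cdkn2d) bind CDK4 and CDK6 and keep them from cyclin D. The CIP/KIP proteins p27KIP1 (Cdkn1b) and p57KIP2 (Cdkn1c, an imprinted gene) bind complexes of cyclin and CDK, and Cdkn2a also encodes p19ARF, which stabilizes p53 by inhibiting MDM2. The locus of Cdkn2a and Cdkn2b is a classic target of Polycomb repression, in which PRC1, through its RING1B subunit, and PRC2 modify histones over promoters rich in CpG.

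All 6 genes were placed on mm9 with the GENCODE annotation of that build, and none overlaps another annotated gene. Cdkn2a lies on the minus strand at chr4:88920377-88940557 and has 2 promoters 12461 bp apart. Promoter 1, the distal one, is the start of the transcript of p19ARF, and promoter 2 that of p16INK4a. Counts per gene do not separate these transcripts. Cdkn2b (chr4:88952198-88956941, minus strand) starts 16384 bp upstream of Cdkn2a promoter 1. Cdkn2c lies at chr4:109333481-109339794, Cdkn2d at chr9:21092907-21095653 and Cdkn1c at chr7:150644255-150646955, all on the minus strand, and Cdkn1b at chr6:134870419-134875531 on the plus strand.

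Promoter sequence is shown for Cdkn2a, Cdkn2b and Cdkn1b, on which RNA and peak results turn, to let the difference in CpG density be read directly. Each run is the 250 bases upstream of the annotated start site, read 5′ to 3′ on the gene's strand from the mm9 genome, with every CG dinucleotide in capitals. The intervals are chr4:88940558-88940807 (Cdkn2a promoter 1), chr4:88928097-88928346 (Cdkn2a promoter 2) and chr4:88956942-88957191 (Cdkn2b), all on the minus strand, and chr6:134870169-134870418 (Cdkn1b) on the plus strand.
Cdkn2a promoter 1: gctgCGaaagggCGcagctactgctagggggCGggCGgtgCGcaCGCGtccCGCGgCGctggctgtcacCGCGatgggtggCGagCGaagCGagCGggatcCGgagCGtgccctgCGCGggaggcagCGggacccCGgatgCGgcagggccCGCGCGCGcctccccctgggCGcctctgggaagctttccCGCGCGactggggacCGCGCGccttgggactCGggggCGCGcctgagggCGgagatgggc
Cdkn2a promoter 2: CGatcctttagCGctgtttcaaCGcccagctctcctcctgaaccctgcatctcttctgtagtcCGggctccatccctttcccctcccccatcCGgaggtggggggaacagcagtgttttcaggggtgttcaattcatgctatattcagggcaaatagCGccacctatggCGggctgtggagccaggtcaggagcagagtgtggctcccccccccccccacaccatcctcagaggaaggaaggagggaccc
Cdkn2b: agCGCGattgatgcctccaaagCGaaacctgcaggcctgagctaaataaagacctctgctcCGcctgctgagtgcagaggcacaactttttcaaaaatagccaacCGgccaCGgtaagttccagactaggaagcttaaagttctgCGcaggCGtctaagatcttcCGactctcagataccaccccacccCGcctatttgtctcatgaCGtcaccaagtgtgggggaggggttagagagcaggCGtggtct
Cdkn1b: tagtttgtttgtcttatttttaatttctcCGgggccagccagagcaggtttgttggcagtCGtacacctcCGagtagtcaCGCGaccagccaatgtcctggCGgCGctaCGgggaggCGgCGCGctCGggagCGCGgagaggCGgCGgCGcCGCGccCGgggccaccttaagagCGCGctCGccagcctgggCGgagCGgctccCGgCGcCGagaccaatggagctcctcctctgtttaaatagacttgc

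Cdkn2a promoter 1 held 38 CG dinucleotides, more than 97.7% of the windows at the 69968 distinct start sites of protein-coding genes, which had a median of 8. Cdkn1b held 28 (more than 90.3% of promoters). The p16INK4a start was CpG-poor by comparison, with 7, and Cdkn2b held 12. Cdkn2d held 16, and the 2 promoters of Cdkn2c held 4 and 6. The palindromes TTCNNNGAA, the letters of a STAT site, and CACGTG, an E-box, read the same on both strands. Neither was present in the windows of Cdkn2a, Cdkn2b, Cdkn2c, Cdkn2d and Cdkn1b, against 6.42% and 6.32% of all promoters.

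The libraries held 14512857 to 81049618 counts on genes, with the lowest depth in the phase disruption table and the highest in the Rybp knockout table. Rybp itself fell from 110 and 110 to 24.8 and 25.0 normalized CPM (counts scaled to library size) after knockout (log2 fold change -2.15) and from 85.7 and 86.4 to 35.8 and 36.6 after knockdown (-1.25). Wdr5 fell from 350 and 343 to 60.05 and 58.2 CPM (-2.55). DOX raised Rybp from 135 and 145 to 522 and 535 CPM in the Tet-on line (1.91). In the rTRS table Rybp was at 113 and 110 CPM without DOX and at 102 and 99.8 in the libraries labelled DOX (log2 fold change -0.15, edgeR adjusted p = 0.0761), so the table does not show an induction of Rybp. Stat3 rose there, from 159 and 172 to 191 and 188 CPM (0.20, edgeR adjusted p = 0.0259). WT.RYBP and phase disruption libraries both held much Rybp (749 and 753 against 662 and 626 CPM). The shEV libraries of the 2 knockdown tables are the same 2 samples, with 0.509 and 0.506 times as many counts in the Wdr5 table, so those 2 comparisons share their controls. Pluripotency transcripts were high throughout (8 markers such as Pou5f1 and Nanog summed to 3562 to 7561 CPM), and in bulk RNA fewer cells of a type and less RNA per cell cannot be told apart.

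Cdkn1b, Cdkn1c and Cdkn2a were the abundant transcripts in the control libraries. Per kilobase of exon, the control mean ranged over the tables from 8.17 to 16.5 CPM for Cdkn1b, from 7.45 to 13.8 for Cdkn1c and from 3.72 to 10.8 for Cdkn2a. Cdkn2d ranged from 1.82 to 3.34, Cdkn2b from 0.155 to 2.83 and Cdkn2c from 0.392 to 0.994. The order of Cdkn1b, Cdkn1c and Cdkn2a thus changed between tables, while each of them was above the other 3 genes in every table. These ranges cross tables that were normalized separately.

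**Figure D1:**
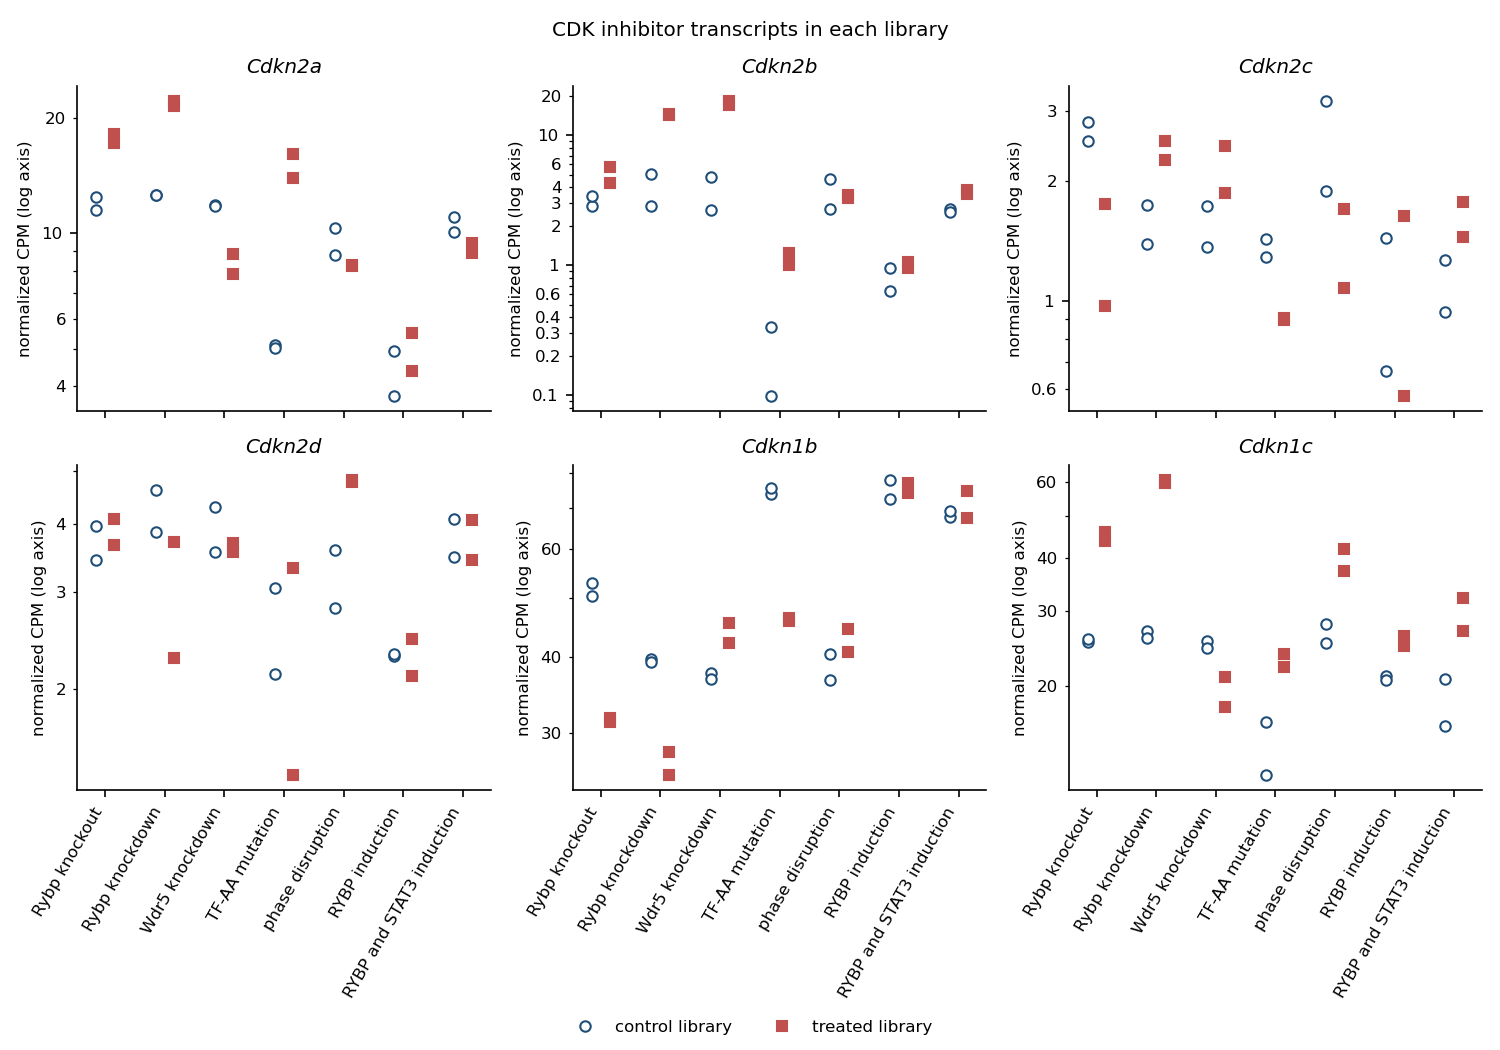
Normalized CPM of each CDK inhibitor (log axis) in every library, by comparison, with open circles for the 2 control and squares for the 2 treated libraries. Cdkn2b reaches 17.2 and 18.5 CPM after Wdr5 knockdown, and after loss of RYBP Cdkn1b is lower and Cdkn1c higher than in the controls.

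RYBP loss moved the family in both directions. Of the 6 genes, 3 rose and 2 fell in Rybp-/- ESCs, where 45.5% of all tested genes passed the test, 22.8% higher and 22.7% lower (edgeR's quasi-likelihood test, Benjamini-Hochberg adjusted p under 0.05). After Rybp knockdown 3 rose and 1 fell, against 52.7% of all genes called (26.8% higher and 26.0% lower). After Wdr5 knockdown 2 rose and 2 fell, against 63.0% (31.5% in each direction). In TF-AA mutation ESCs 3 rose and 1 fell, against 30.5% (14.4% higher and 16.1% lower). Only Cdkn1c was called in the phase disruption table, where 33.0% of all genes were (16.1% higher and 17.0% lower), and in the rTRS table, where 43.4% were (23.0% higher and 20.4% lower), and it was higher in both. No member was called by edgeR after RYBP induction, where 6.02% of all genes were (3.63% higher and 2.39% lower). Cdkn1c alone had an unadjusted p under 0.05 there, and DESeq2 called none either. The median log2 fold change of the 6 genes was 0.31 after knockout, 0.70 after knockdown, 0.06 after Wdr5 knockdown, 0.27 in TF-AA mutation ESCs, 0.01 in phase disruption, 0.13 after RYBP induction and 0.26 in rTRS, while the median over all tested genes lay between -0.01 and 0.02 in the 7 tables.

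**Figure D2:**
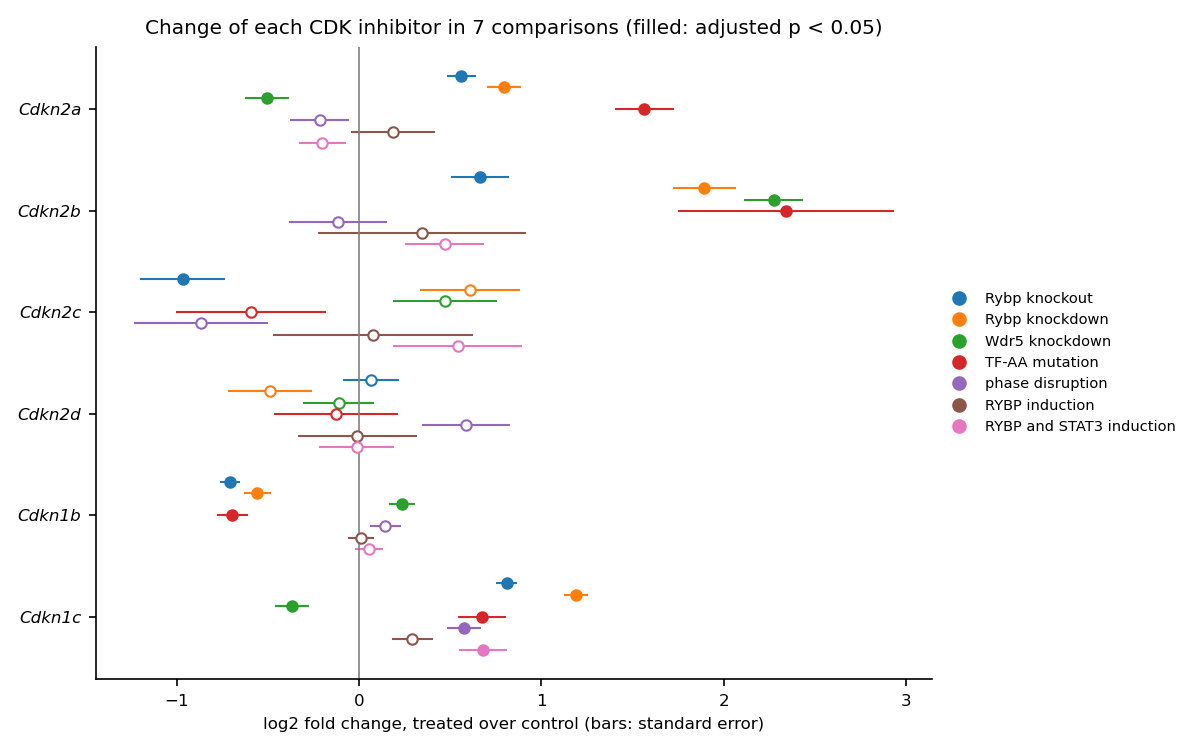
The log2 fold change of each gene, treated over control, with its standard error, for the 7 comparisons, and filled points for an adjusted p under 0.05. The knockout, Rybp knockdown and TF-AA mutation points lie to the right of 0 for Cdkn2a, Cdkn2b and Cdkn1c and to the left for Cdkn1b, and the Wdr5 knockdown points lie on the other side for Cdkn2a, Cdkn1b and Cdkn1c.

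Cdkn2a, the shared gene of p16INK4a and p19ARF, was higher in 3 of the comparisons and lower in 1. Its level was 11.5 and 12.5 CPM in Rybp+/+ and 18.1 and 17.2 CPM in Rybp-/- ESCs, a log2 fold change of 0.56 (SE 0.08, edgeR adjusted p = 6.77e-07). After Rybp knockdown it went from 12.6 and 12.6 to 21.5 and 22.2 CPM (log2 fold change 0.80, SE 0.09, edgeR adjusted p = 8.78e-07). Both treated libraries stood clear of both controls in each case. The largest change was in TF-AA mutation ESCs, with 5.11 and 5.04 CPM in WT and 16.1 and 13.9 CPM in the mutant (1.57, SE 0.16, edgeR adjusted p = 6.17e-08). Wdr5 knockdown gave the reverse, from 11.9 and 11.8 to 8.83 and 7.82 CPM (-0.51, SE 0.12, edgeR adjusted p = 0.00102). In the other tables the change missed the threshold: 8.81 and 10.4 against 8.28 and 8.20 CPM in phase disruption (-0.22, edgeR adjusted p = 0.322), 4.93 and 3.77 against 4.38 and 5.51 with RYBP induction (0.19, edgeR adjusted p = 0.742), and 10.1 and 11.0 against 8.92 and 9.45 in rTRS (-0.20, edgeR adjusted p = 0.235).

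Cdkn2b, which encodes p15INK4b, showed the largest fold changes of the family and was called higher in 4 comparisons. It was at 2.89 and 3.43 CPM in Rybp+/+ and at 4.27 and 5.73 CPM in Rybp-/- ESCs (log2 fold change 0.66, SE 0.16, edgeR adjusted p = 7.78e-04). This call rested on 1 library: without Rybp-/- replicate 2 the change was 0.43 with an adjusted p of 0.0659. Rybp knockdown raised it from 2.86 and 5.03 to 14.7 and 14.4 CPM (1.89, SE 0.18, edgeR adjusted p = 4.25e-08). Wdr5 knockdown raised it from 2.67 and 4.76 to 17.2 and 18.5 CPM (2.27, SE 0.16, edgeR adjusted p = 2.48e-11). The shEV libraries differed from each other by more than either pair of knockdown libraries did, and still lay far below them. In TF-AA mutation ESCs the gene was close to the detection limit, with 7 and 2 reads in WT and 25 and 19 in the mutant, or 0.334 and 0.0988 against 1.24 and 1.01 CPM. Its log2 fold change there was 2.34 (SE 0.59, edgeR adjusted p = 0.00374). That call was lost without WT replicate 2 (1.73, adjusted p 0.0580), without TF-AA mutation replicate 1 (2.19, adjusted p 0.0638) and in DESeq2 (2.37, adjusted p 0.0593), and the value was 3.43 without WT replicate 1. Phase disruption (2.71 and 4.62 against 3.46 and 3.29 CPM, -0.12, edgeR adjusted p = 0.782), RYBP induction (0.637 and 0.956 against 0.960 and 1.06, 0.34, edgeR adjusted p = 0.818) and rTRS (2.72 and 2.59 against 3.81 and 3.53, 0.47, edgeR adjusted p = 0.0980) gave no call.

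The 2 neighbouring genes were therefore read against each other within each library, where normalization cancels. Per 100 Cdkn2a reads, shEV libraries held 22.4 and 40.3 Cdkn2b reads in the Wdr5 table, and shWdr5 libraries 194 and 236. Cdkn2b reads outnumbered Cdkn2a reads in these 2 libraries and in no other, also per length of exon (163 and 198 per 100). In the Rybp knockdown table the ratio was 22.7 and 39.9 in shEV and 68.5 and 65.0 in shRybp. Rybp-/- ESCs had 23.6 and 33.3 against 25.1 and 27.5 in Rybp+/+, so the groups overlapped. The ratio was 7.72 and 7.28 in TF-AA mutation against 6.54 and 1.96 in WT, 41.8 and 40.2 against 30.7 and 44.6 in phase disruption, 21.9 and 19.3 against 12.9 and 25.4 with RYBP induction, and 42.8 and 37.4 against 26.9 and 23.5 in rTRS.

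**Figure D3:**
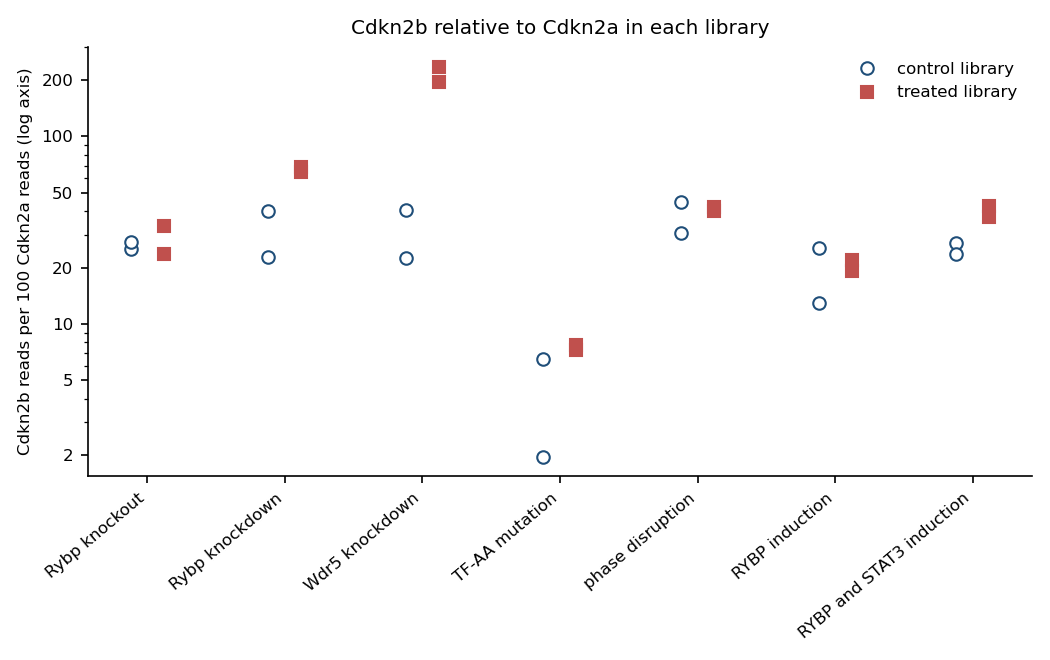
Cdkn2b reads per 100 Cdkn2a reads in each library (log axis), by comparison, with open circles for control and squares for treated libraries. The shWdr5 libraries, at 194 and 236, stand apart from every other library.

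Of the genes flanking this pair, Mtap, the nearest protein-coding gene beyond Cdkn2a, had log2 fold changes of 0.05 after knockout, -0.12 after Rybp knockdown and 0.05 in TF-AA mutation ESCs, none of them called, and fell by 0.45 after Wdr5 knockdown (edgeR adjusted p = 1.64e-05) and by 0.23 in phase disruption (edgeR adjusted p = 0.00481). Dmrta1, on the Cdkn2b side, passed the filter on low counts in no table. Among neighbours of the other INK4 genes, Faf1, beside Cdkn2c, fell in 6 of the 7 tables, by 0.34 after knockout and by 0.58 after Rybp knockdown. Beside Cdkn2d, Ap1m2 rose by 2.01 after Rybp knockdown and by 0.85 after Wdr5 knockdown, and Kri1 fell by 0.41 after Rybp knockdown. Ap1m2 also rose after RYBP induction (0.40) and in rTRS (1.05), and fell by 0.35 in phase disruption.

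Cdkn2c and Cdkn2d, the remaining INK4 genes, were low, and the only call among their comparisons was a fall of Cdkn2c after knockout. Cdkn2c was at 2.52 and 2.82 CPM in Rybp+/+ and at 0.973 and 1.75 CPM in Rybp-/- ESCs, and fell by 0.97 on the log2 scale (SE 0.23, edgeR adjusted p = 8.41e-04). The size of this fall rested on which Rybp-/- library was kept, being 0.61 without replicate 1 and 1.46 without replicate 2, past the threshold in both cases. After Rybp knockdown Cdkn2c was higher in both libraries, with 2.26 and 2.52 against 1.74 and 1.39 CPM, but the change of 0.61 missed the threshold (SE 0.27, edgeR adjusted p = 0.0716) and depended on the shEV libraries, with 0.78 without replicate 1 (adjusted p 0.0400) and 0.44 without replicate 2 (adjusted p 0.235). In phase disruption it was at 1.70 and 1.08 against 1.89 and 3.18 CPM (-0.87, SE 0.37, edgeR adjusted p = 0.0677), a change that passed without WT.RYBP replicate 1 (adjusted p 0.0274) and was -0.45 without WT.RYBP replicate 2 (adjusted p 0.582). The other comparisons gave 1.87 and 2.45 against 1.73 and 1.37 CPM for Wdr5 knockdown (0.47), 0.895 and 0.907 against 1.29 and 1.43 for TF-AA mutation (-0.59), 0.576 and 1.64 against 1.44 and 0.666 for RYBP induction (0.08) and 1.44 and 1.77 against 0.939 and 1.27 for rTRS (0.54), with edgeR adjusted p from 0.159 to 0.967.

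Cdkn2d was called in no comparison. It was at 3.44 and 3.96 CPM in Rybp+/+ and 4.09 and 3.66 CPM in Rybp-/- ESCs (log2 fold change 0.07). After Rybp knockdown it was at 3.71 and 2.27 CPM against 3.87 and 4.62 in shEV (-0.49, SE 0.23, edgeR adjusted p = 0.0828). That value crossed the threshold without a filter on low counts (-0.49, adjusted p 0.0448), without shEV replicate 1 (-0.62, adjusted p 0.0159) and without shRybp replicate 1 (-0.90, adjusted p 0.0112). It was smaller without shEV replicate 2 (-0.36, adjusted p 0.195) and without shRybp replicate 2 (-0.20, adjusted p 0.584). Phase disruption libraries held 4.82 and 4.77 CPM against 3.59 and 2.81 in WT.RYBP (0.58, SE 0.24, edgeR adjusted p = 0.0616). In the remaining 4 tables the groups overlapped. Cdkn2d was at 3.69 and 3.55 CPM in shWdr5 against 3.55 and 4.30 in shEV (-0.11), and at 3.33 and 1.39 in TF-AA mutation against 3.06 and 2.12 in WT ESCs (-0.13). With RYBP induction it was at 2.11 and 2.47 against 2.298 and 2.32 CPM, and in rTRS at 3.45 and 4.06 against 3.48 and 4.10, a log2 fold change of -0.01 in both. The standard errors of these 2 low genes ran from 0.15 in the Rybp knockout table to 0.55 after RYBP induction.

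Cdkn1b, which encodes p27KIP1, was the abundant gene that fell after loss of RYBP. Rybp+/+ ESCs had 52.9 and 50.3 CPM and Rybp-/- ESCs 31.8 and 31.3 CPM (log2 fold change -0.71, SE 0.05, edgeR adjusted p = 5.52e-13). The fall after Rybp knockdown was from 39.6 and 39.2 to 25.6 and 28.0 CPM (-0.56, SE 0.08, edgeR adjusted p = 4.87e-06). In TF-AA mutation ESCs it was at 46.4 and 45.7 CPM against 73.8 and 75.5 in WT (-0.70, SE 0.09, edgeR adjusted p = 1.12e-06). The treated libraries were below both controls in all 3 tables. Wdr5 knockdown went the other way, with 45.4 and 42.1 CPM against 37.6 and 36.8 in shEV (0.24, SE 0.07, edgeR adjusted p = 0.00576). This small rise was lost without shWdr5 replicate 1 (0.18, adjusted p 0.0918) and in DESeq2 (0.24, adjusted p 0.0607). Phase disruption gave 44.5 and 40.8 against 40.5 and 36.7 CPM (0.14, edgeR adjusted p = 0.193), RYBP induction 74.1 and 77.2 against 72.5 and 77.9 (0.01, edgeR adjusted p = 0.973) and rTRS 67.6 and 74.9 against 67.8 and 69.4 (0.05, edgeR adjusted p = 0.605). Gpr19, the neighbour on one side of Cdkn1b, also fell after knockout (-0.50) and Rybp knockdown (-0.38) and rose after Wdr5 knockdown (0.49), but in TF-AA mutation ESCs its change of -0.27 missed the threshold (edgeR adjusted p = 0.222). In phase disruption Gpr19 fell by 0.45 (edgeR adjusted p = 3.69e-04), where Cdkn1b was not called. Apold1, on the other side of Cdkn1b, was near the detection limit and had -0.04 after knockout. It was called only in phase disruption (1.75, edgeR adjusted p = 0.0164), with 15 and 20 reads against 8 and 3 in WT.RYBP.

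Cdkn1c, which encodes p57KIP2, was the gene called most often, higher in 5 comparisons and lower in 1. It rose from 25.3 and 25.8 CPM in Rybp+/+ to 45.8 and 43.8 CPM in Rybp-/- ESCs (log2 fold change 0.81, SE 0.06, edgeR adjusted p = 9.39e-14). With Rybp knockdown the rise was from 27.0 and 25.9 to 59.8 and 60.8 CPM (1.19, SE 0.07, edgeR adjusted p = 5.49e-11). TF-AA mutation ESCs had 22.2 and 23.8 against 16.4 and 12.4 CPM (0.67, SE 0.13, edgeR adjusted p = 4.03e-04). All treated libraries lay above the controls. Phase disruption libraries had 37.3 and 41.8 against 27.9 and 25.2 CPM in WT.RYBP (0.57, SE 0.09, edgeR adjusted p = 6.66e-06), and rTRS libraries labelled DOX 32.1 and 26.9 against 20.8 and 16.1 (0.68, SE 0.13, edgeR adjusted p = 0.00101). With RYBP induction it was at 26.2 and 24.9 against 21.1 and 20.7 CPM, without passing the threshold (0.29, SE 0.11, edgeR adjusted p = 0.125). Wdr5 knockdown lowered it from 25.4 and 24.6 to 17.9 and 21.0 CPM (-0.37, SE 0.09, edgeR adjusted p = 0.00147). Slc22a18, its neighbour in the same imprinted region, rose after knockout (0.35), Rybp knockdown (0.64) and in TF-AA mutation ESCs (0.85), and had 0.02, 0.14, 0.11 and -0.12 in the Wdr5 knockdown, phase disruption, RYBP induction and rTRS tables, none called.

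Transcripts of other cell types moved in several of these tables. Of 8 fibroblast markers, 7 rose in Rybp-/- ESCs, from a summed 56.9 to 57.9 CPM up to 116 to 122 CPM, with 2 of the 8 under 1 CPM throughout. After Rybp knockdown the 4 that were tested rose (31.5 to 32.3 against 18.7 to 18.9 CPM in all), with Dcn and Lum at 0 in every library of that table. In TF-AA mutation ESCs the 3 that were tested rose (24.2 to 24.7 against 11.0 to 11.7 CPM), with Col3a1, Dcn and Lum at 0 in all libraries. Wdr5 knockdown left this sum at 15.4 to 15.8 against 18.0 to 18.4 CPM, and phase disruption at 345 to 369 against 427 to 432 CPM. In the rTRS libraries labelled DOX, 6 of 8 ESC markers fell (3562 to 3752 against 5919 to 6152 CPM), and the sum of 5 trophectoderm markers was 85.7 to 92.1 against 18.7 to 19.1 CPM. The sum of mesoderm markers was also higher there (37.5 to 40.3 against 4.88 to 5.655 CPM), mostly from T (31.2 and 29.9 CPM with DOX). The neural sum was 45.95 to 48.6 against 15.1 to 18.6 CPM. Nearly all of it was Nes (48.0 and 45.6 against 17.8 and 14.1 CPM). Pax6 fell there by 2.06, and 4 of 5 neural markers were under 1 CPM throughout. Trophectoderm markers rose in other tables too, 4 of 5 after knockout (13.5 to 13.6 against 8.74 to 8.97 CPM in the controls) and 3 of 5 after Rybp knockdown (28.8 to 29.9 against 17.4 to 19.7 CPM), where Eomes fell by 0.61. After Wdr5 knockdown 2 rose and Eomes fell (31.0 to 34.2 against 16.7 to 18.6 CPM), and 5 of 8 ESC markers fell and 2 rose (5871 to 5908 against 6981 to 7109 CPM). Mesoderm sums were also higher after both knockdowns, at 14.4 to 15.2 against 5.01 to 5.41 CPM for Rybp and 9.91 to 11.4 against 5.19 to 5.47 CPM for Wdr5. After Rybp knockdown Hand1 was the only mesoderm marker called (9.10 and 9.16 against 1.09 and 0.571 CPM). After Wdr5 knockdown Hand1 rose by 2.06 and Mixl1 fell by 1.33. The neural sum was 46.5 to 51.9 against 20.96 to 22.6 CPM after Rybp knockdown. Most of it was Nes (41.4 and 45.3 against 14.3 and 15.4 CPM), while Pax6 fell by 0.95. Of 7 primitive endoderm markers, 3 rose after knockout, 5 after Rybp knockdown, 4 after Wdr5 knockdown and 2 in TF-AA mutation ESCs, tables in which 22.8%, 26.8%, 31.5% and 14.4% of all genes were called higher, and Sox7 fell after both knockdowns. In phase disruption the trophectoderm sum was 29.7 to 29.8 against 18.8 to 21.3 CPM, and the neural sum 147 to 151 against 170 to 189 CPM. Of the mesoderm markers there, Hand1 rose by 2.68 and T fell by 1.38. The part of these cells or states in the changes of the CDK inhibitors was not tested.

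Cdkn1a, which encodes p21CIP1, the p53-responsive CIP/KIP inhibitor, was read beside the family. It rose after knockout (46.0 to 63.9 CPM on average, log2 fold change 0.47), Rybp knockdown (1.07), Wdr5 knockdown (2.03), RYBP induction (0.52) and in rTRS (0.48), fell in phase disruption (-0.46), and was not called in TF-AA mutation ESCs (-0.19). Its rise after Wdr5 knockdown, from 52.4 to 214 CPM on average, was close in fold to that of Cdkn2b in the same libraries.

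Of the 9 cyclins and CDKs of the G1/S transition, 8 fell and none rose after Rybp knockdown, where 26.0% of all genes were called lower (median log2 fold change -0.75, against 0.02 for all genes). After Wdr5 knockdown 7 fell, against 31.5% of all genes, and 1 rose (-0.51 against -0.01). Ccne1, the cyclin partner of CDK2, fell most in both, by 1.21 and by 1.94. In TF-AA mutation and phase disruption ESCs 5 fell and none rose, against 16.1% and 17.0% of all genes called lower, led by Ccne1 (-0.58) and by the D-type cyclin Ccnd2 (-0.56). Rybp-/- ESCs differed, with 2 higher and 3 lower, against 22.8% and 22.7% of all genes, and a median of -0.01, and Ccnd2 rose there from 10.9 to 21.6 CPM on average (0.98) while Cdk6 fell by 0.44. After RYBP induction 2 fell, against 2.39% of all genes, Ccnd2 by 1.13, and none rose. In rTRS 1 rose (Ccnd2, 0.40) and 2 fell, Ccnd3 by 0.61, against 23.0% of all genes called higher and 20.4% lower.

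Among 11 pocket proteins and E2F factors, through which CDK4 and CDK6 act on transcription, the calls went both ways, and the list's median log2 fold change lay between -0.14 and 0.090 over the 7 tables. Its counts stand against 45.5%, 52.7%, 63.0%, 30.5%, 33.0%, 6.02% and 43.4% of all genes called after knockout, Rybp knockdown, Wdr5 knockdown, TF-AA mutation, phase disruption, RYBP induction and in rTRS. After knockout 1 rose, the Polycomb-associated repressor E2f6 (0.64), and 5 fell, E2f7 by 0.50. After Rybp knockdown 4 rose and 5 fell, with Rb1 at 1.02 and E2f2 at -1.47. After Wdr5 knockdown 5 rose and 4 fell, with Rb1, the retinoblastoma protein, at 2.41 (10.6 to 56.5 CPM on average) and E2f3 at -1.99. E2f6 led the rises in TF-AA mutation (1.12; 1 up and 3 down) and in phase disruption ESCs (0.41; 4 up and 4 down), and E2f5 (-0.34) and Rbl2 (-1.04) the falls. RYBP induction lowered only E2f8 (-0.28), and rTRS had E2f7 higher (0.28) and 2 lower, E2f2 by 1.26.

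A list of 16 regulators of these inhibitors held Polycomb subunits, histone demethylases, transcription factors and the p27KIP1 ubiquitin ligase factors Skp2 and Cks1b. Its median log2 fold change lay between -0.15 and 0.029, and the same shares of all genes apply to its counts. After knockout 5 rose and 4 fell, Id1, which opposes ETS activation of p16INK4a, by the most upward (1.56) and Kdm2b, the CpG-binding subunit of a RYBP-containing PRC1, by the most downward (-0.60). Kdm2b was also the largest fall after Rybp knockdown (-0.70; 4 up and 9 down) and in TF-AA mutation ESCs (-0.97; 1 up and 4 down of 15 tested). Ets1, an activator of p16INK4a, led the rises in those tables, with 1.76 and 1.62. Wdr5 knockdown raised 7, led by Bmi1, a PRC1 subunit that represses Cdkn2a (1.81, from 5.61 to 19.6 CPM on average), and lowered 6, led by Id1 (-0.88). In phase disruption 3 rose, Dmtf1 by 0.18, and 6 fell, Bmi1 by 0.72. Eed, of PRC2, was the only one called after RYBP induction (-0.20), and in rTRS 4 rose, Ets1 by 1.82, and 4 fell, Id1 by 1.04.

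Peaks were then read within 2.5 kb of each start site. The histone mark, WDR5 and first pair of STAT3 lists come from Rybp+/+ and Rybp-/- ESCs. RING1B was mapped in R1 ESCs with shEV or an shRNA against Stat3 (shStat3), and RING1B and STAT3 in ESCs with DOX-induced Rybp and Stat3, without (DOX-) or with DOX (DOX+). Each antibody and condition has 1 list, from merged replicates or a single library. Fold enrichment, the ratio over background that MACS2 gives, is therefore described without a test. Its percentile within its own list is given to compare lists. RING1B, the E3 ligase of PRC1, had a peak at 5 of the 6 genes in shEV ESCs, where 45.9% of 22380 protein-coding genes had one. The same 5 genes, all but Cdkn2d, held a peak in shStat3 ESCs (41.6% of all genes), DOX- ESCs (54.7%) and DOX+ ESCs (41.9%). In shEV ESCs the fold enrichment was 36.7 at Cdkn2a promoter 1 (percentile 94.9), 35.8 at Cdkn1c (94.7) and 35.6 at Cdkn2c (94.6). It was 18.5 at Cdkn2b (86.9) and 13.8 at Cdkn2a promoter 2 (82.9), and only 4.12 at Cdkn1b (37.2).

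In the other 3 lists Cdkn1c and Cdkn2c stayed above percentile 92, while the order of the promoters, the widths and the fold enrichments varied. Cdkn2a promoter 1 stood at 32.7 in shStat3 and at 33.0 and 20.8 in DOX- and DOX+ ESCs, with percentiles of 92.9, 93.8 and 88.7. Cdkn1c was at 37.5, 48.6 and 25.9 (95.1, 97.8 and 92.3), and its peak in shEV was 8678 bp wide and covered the whole gene. The DOX- value is of a peak of 4812 bp, 1 of 2 there. The shStat3 and DOX+ values are of single peaks of 9234 and 8672 bp, so the intervals differ. At Cdkn2a promoter 2 the shEV peak was 4448 bp wide. In the other lists a single peak of 12897 to 14533 bp joined it to the region past the 3′ end of the gene. The values there are therefore not of the same interval. Cdkn2c was at 33.7, 41.3 and 29.3 in shStat3, DOX- and DOX+ ESCs (percentiles 93.4, 96.3 and 94.2). Cdkn2b was at 12.2, 11.0 and 8.79 (76.3, 77.7 and 71.3). Those values are of peaks of 5674, 5000 and 5535 bp, against 1479 bp in shEV. The wider peaks take in a stretch that held a separate peak of 11.6 in shEV, so the intervals differ here as well. The broad peak at Cdkn2a promoter 2 was at 23.1, 27.2 and 21.1 (87.6, 91.5 and 89.0). Cdkn1b had the weakest RING1B peak of the 5 genes in every list, with 2.76 in shStat3 (percentile 0.907), 7.15 in DOX- (65.3) and 4.62 in DOX+ (45.8). Its peaks in shEV and shStat3 ESCs had a -log10 q of 4.31 and 1.91 and were lost at a minimum of 5.

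**Figure D4:**
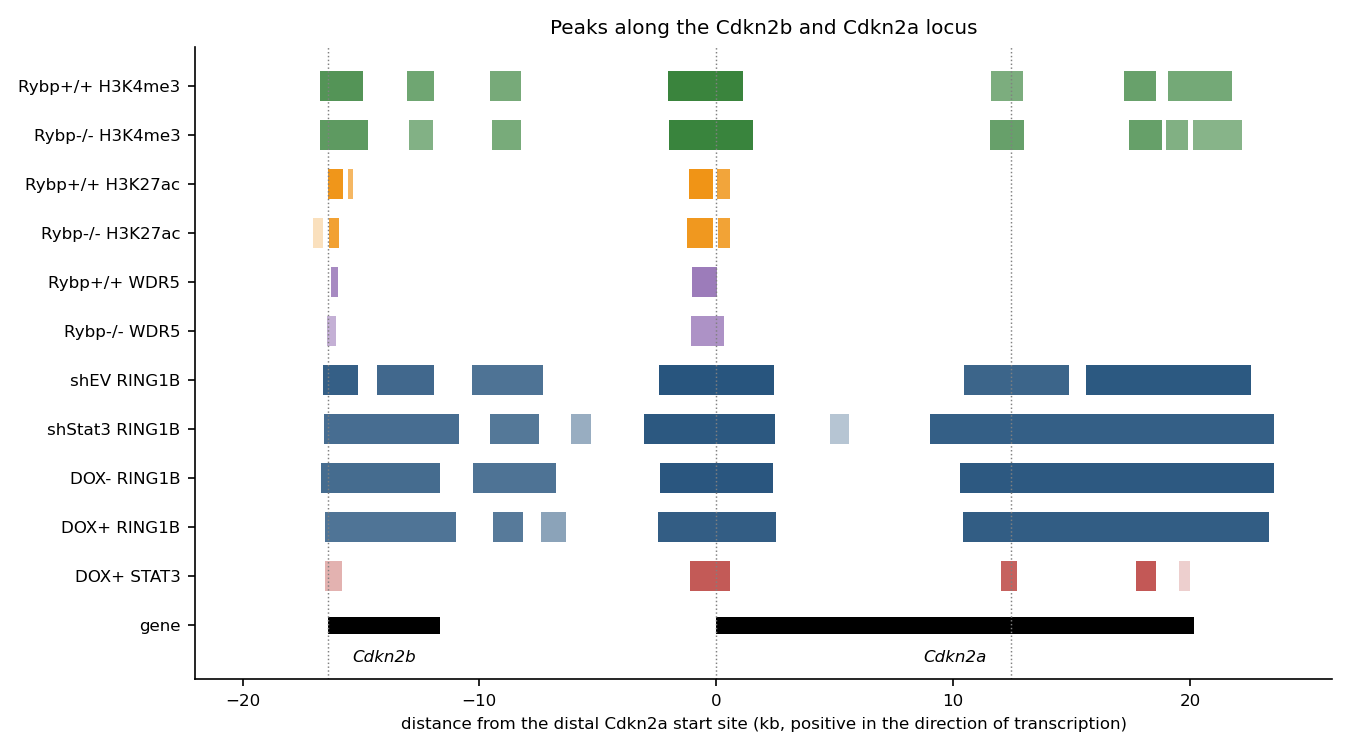
Peaks along Cdkn2b and Cdkn2a, drawn by distance in kb from the distal Cdkn2a start site, 1 row per list and darker for a higher percentile of fold enrichment, with dotted lines at the 3 start sites. RING1B and H3K4me3 lie at all 3, H3K27ac and WDR5 only at Cdkn2b and the distal Cdkn2a start.

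H3K4me3, the mark of active and poised promoters, was present at the same 5 genes in both genotypes, against 67.8% of all genes in Rybp+/+ and 67.9% in Rybp-/- ESCs. Cdkn2a promoter 1 had a fold enrichment of 48.2 and 50.7 in Rybp+/+ and Rybp-/- ESCs, at percentile 92.9 and 93.0. Cdkn2a promoter 2 had 7.63 and 15.6 (50.2 and 63.6). Cdkn1c went from 17.0 (percentile 66.6) to 39.9 (84.7), the widest shift in percentile among the promoters, beside its higher transcript level in Rybp-/- ESCs. Cdkn1b went from 46.9 (92.0) to 39.7 (84.5) and Cdkn2b from 27.6 (75.8) to 22.0 (69.4), while the peak at Cdkn2c stood at 41.9 (88.2) and 45.1 (89.0). In Rybp-/- ESCs the RNA was likewise higher at Cdkn2a and lower at Cdkn1b. At Cdkn2b the RNA was higher and the H3K4me3 percentile lower, and at Cdkn2c the reverse.

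H3K27ac, the mark of active promoters and enhancers, was found at 4 of the genes in Rybp+/+ ESCs (51.6% of all genes) and at 5 in Rybp-/- ESCs (54.8%). The gene that differed was Cdkn1c, whose peak in Rybp-/- ESCs was weak (3.57, percentile 41.0, -log10 q of 4.90). With peaks kept only at a -log10 q of at least 5, both genotypes held 4 of the genes and the difference was gone. Cdkn1b had the strongest peak, 20.0 (93.3) in Rybp+/+ and 14.7 (91.7) in Rybp-/- ESCs. Lower values in Rybp-/- ESCs were also seen at Cdkn2a promoter 1 (13.7 and 8.56; percentiles 88.5 and 83.7), Cdkn2b (12.0 and 5.83; 86.5 and 74.0) and Cdkn2c (10.1 and 7.89; 83.7 and 82.0). At Cdkn2a and Cdkn2b the RNA was higher and the H3K27ac percentile lower in Rybp-/- ESCs. The p16INK4a start had no H3K27ac peak in either list.

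WDR5, a subunit of the H3K4 methyltransferase complexes, was also at these 5 genes in both genotypes, against 46.8% and 49.2% of all genes. Its peak at Cdkn1c had a fold enrichment of 8.36 (percentile 81.0) in Rybp+/+ and 13.6 (89.7) in Rybp-/- ESCs. Values were lower in Rybp-/- ESCs at Cdkn2a promoter 1 (6.31 and 5.03; percentiles 65.8 and 49.1), Cdkn2b (5.51 and 3.94; 55.3 and 26.1) and Cdkn2c (5.26 and 4.77; 51.5 and 44.6), and Cdkn1b was low in both (3.71 and 3.31; 17.0 and 11.1). No WDR5 peak was listed at Cdkn2a promoter 2.

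STAT3, the transcription factor downstream of LIF, had no peak at any member in Rybp+/+, Rybp-/- or DOX- ESCs, lists in which 7.78%, 6.56% and 9.03% of all genes had one. In DOX+ ESCs it had a peak at 5 of the 6, but that list holds 30663 peaks against 2816 for DOX-, and 57.5% of all genes had one. The strongest was at Cdkn1c (11.5, percentile 98.0), followed by Cdkn2c (8.80, 94.0) and Cdkn2a promoter 1 (8.30, 92.5). Cdkn2a promoter 2 had 6.99 (86.5), Cdkn1b 6.10 (79.1) and Cdkn2b 3.70 (25.2). The windows of 250 bases printed above hold none of the STAT palindromes searched for, which only 6.42% of all promoters hold. These windows cover only part of the peaks, so they cannot decide whether such a site lies under a peak.

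Cdkn2d had no peak of any antibody within 2.5 kb of its start site. The nearest H3K4me3 peak in Rybp+/+ ESCs ended 3893 bp away, at chr9:21090440-21091760, beyond the 3′ end of the gene, and the nearest RING1B peak in shEV ESCs was 20660 bp away. The transcript was nevertheless detected in all 28 library columns.

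**Figure D5:**
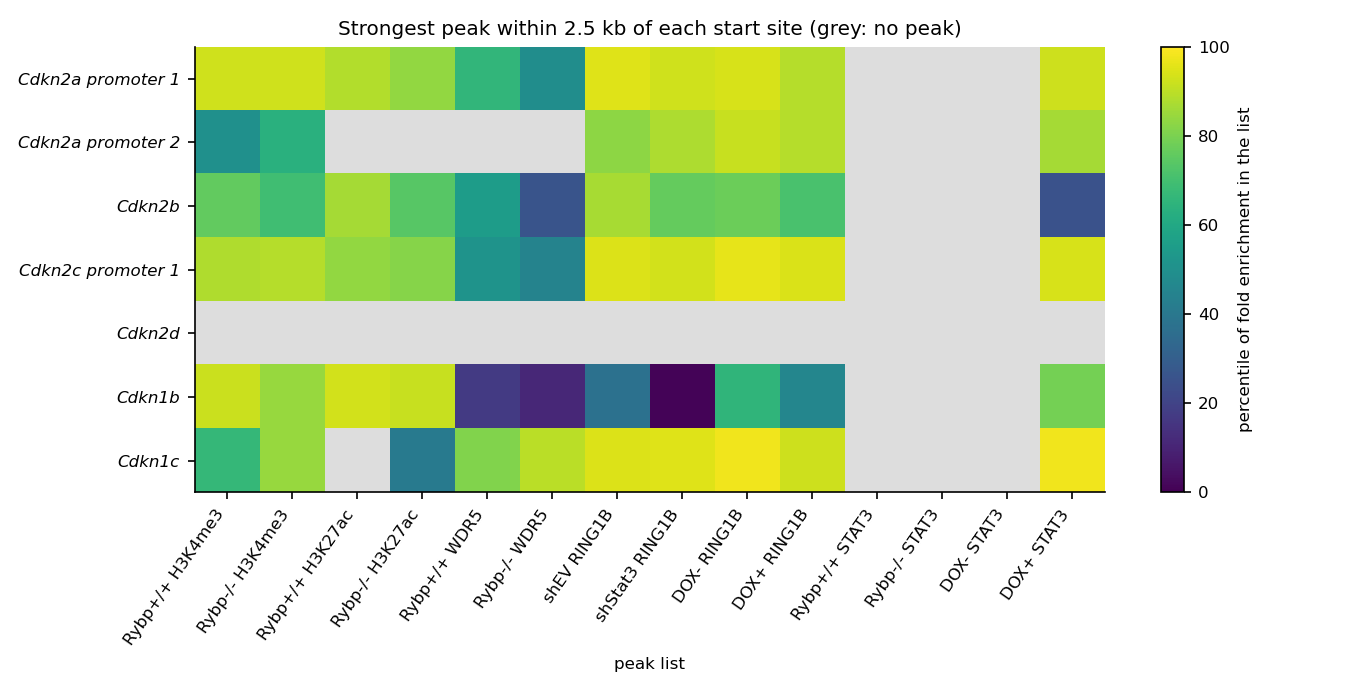
Percentile of fold enrichment, within its own list, of the strongest peak within 2.5 kb of each start site, with promoters in rows and the 14 peak lists in columns, and grey where no peak is listed. Cdkn2d is grey throughout. Cdkn1b has the lowest percentile of the promoters with a peak in every RING1B and WDR5 list (up to 65.3 for RING1B). It is high for H3K4me3 and H3K27ac.

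Likeness of pattern was described over the 28 library columns, of which 2 pairs are the same shEV libraries, as Pearson's r of log2 CPM centred on each table's mean, for 13126 genes tested in all tables. The genes most like Cdkn2b were Zbtb10 (0.940), Commd3 (0.937) and Vopp1 (0.936), and those most like Cdkn1b were Itsn1 (0.939), Zfp217 (0.932) and Scaf11 (0.916). Cdkn1c came closest to Rin3 (0.917), Thsd4 (0.905) and Bmp8b (0.902), and Cdkn2a to Golim4 (0.865), Slc4a5 (0.864) and Scml2 (0.853). The low genes had looser matches, Deptor (0.749) for Cdkn2c and Mpv17l2 (0.705) for Cdkn2d. Within the family Cdkn2a and Cdkn1b ran opposite to each other (r = -0.88), as did Cdkn1b and Cdkn1c (-0.74), while Cdkn2a and Cdkn1c ran together (0.61). Cdkn2a and Cdkn2b, although adjacent, were only loosely alike (0.39). These columns share tables, depth and treatments, and no test was made.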

How the data were processed

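RNA-seq and ChIP-seq of mouse ESCs were analysed from the processed files. Per the study's methods, the authors trimmed reads with Trim Galore, aligned them to mm9 with STAR and deposited counts per gene from HTSeq, without normalization. Strand use in counting is not given in the sources used here. Rows that name no gene (up to 58.5% of a library's counts, and absent from the RYBP induction table) were left out of library sizes. Peak lists were called by the authors with MACS2 against input, on merged replicates where there were any. The deposited fold enrichment (a ratio over background) and -log10 q were used as they stand, and the peak lists carry no read depth.

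Each of 7 count tables was fitted alone with edgeR 4.0.16 in R 4.3.3 (filterByExpr, TMM, quasi-likelihood test, 2 against 2 libraries, Benjamini-Hochberg over all genes tested), and a gene was called at an adjusted p under 0.05. CPM uses TMM-scaled library sizes. The standard error is the log2 fold change divided by the square root of F. A peak belonged to a promoter when it overlapped the start site ± 2.5 kb by at least 1 bp, and start sites within 500 bp counted as 1 promoter. Replicate libraries differed beyond sampling noise in every group. The test was also run on simulated counts, and the outcome of that run is not given here.

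The members and gene lists were chosen with earlier results of these data known. Named genes are the 6 members, the targeted genes, from each list the called gene with the largest change in each direction per table, the nearest protein-coding neighbours, and the 3 genes most alike in pattern. Alternatives were DESeq2 1.42.0, RLE scaling, no filter, a replicate block, leaving out each library, other promoter windows (1 kb, or gene body with 5 kb upstream), -log10 q of at least 5, and windows that hold at least as much of a peak as lies outside them. RING1B, STAT3, WDR5, H3K4me3 and H2AK119ub1 ChIP-seq of the TF-AA mutation and phase disruption lines, and the APEX samples, were not analysed here. One promoter sequence is not reported here.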

Additional observations from a re-analysis of the deposited data

Results flagged for a closer look

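Cdkn2c moved in opposite directions in the 2 models of RYBP loss. Its log2 fold change was -0.97 in Rybp-/- ESCs of the R7.15 line, where both Rybp-/- libraries lay below both controls. It was 0.61 after Rybp knockdown in R1 ESCs, where both shRybp libraries lay above both shEV libraries. The difference between the models was not tested, and the knockdown change alone missed the threshold.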

How the results depend on the processing

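Direction and call of the genes were kept in most settings. RLE scaling changed none of the 42 changes of a gene in a table, and the stricter peak lists, other windows and other overlap changed none of the 14 counts of genes with a promoter peak by over 1.5 times. A -log10 q of at least 5 lowered 3 of them from 5 to 4, for H3K27ac in Rybp-/- ESCs (Cdkn1c) and RING1B in shEV and shStat3 ESCs (Cdkn1b), and the overlap rule lowered RING1B to 4 in shStat3 and DOX+ ESCs. Over all genes, DESeq2 called 2903 genes in the TF-AA mutation table and 2630 in the phase disruption table, against 4412 and 4814, and the other 5 tables stayed within 1.5 times. The cause was not tested. Leaving out 1 library gave 2724 to 4767 genes in the TF-AA mutation table, with 2724 and 2733 without TF-AA mutation replicates 1 and 2, and 406 to 1566 after RYBP induction (899 with all), with 406 and 409 without DOX replicates 1 and 2 and 1566 and 1467 without vehicle replicates 1 and 2. It gave 1 to 2 members called in phase disruption. Directions turned only for changes that were not called. Cdkn2d ran from -0.039 to 0.17 after knockout, -0.25 to 0.026 after Wdr5 knockdown, -0.90 to 0.36 in TF-AA mutation, -0.13 to 0.10 after RYBP induction and -0.14 to 0.11 in rTRS. Cdkn1b ran from -0.042 to 0.061 after RYBP induction and -0.020 to 0.12 in rTRS, Cdkn2b from -0.46 to 0.31 in phase disruption, and Cdkn2c from -0.87 to 0.74 after RYBP induction. Other changes without a call kept their direction but moved widely, such as Cdkn2a (0.0071 to 0.40) and Cdkn2b (0.082 to 0.66) after RYBP induction and Cdkn2a in phase disruption (-0.34 to -0.10). Replicate numbers are shared between groups, but with 2 pairs per table they do not establish pairing (correlation of same-numbered deviations 0.00 to 0.15). With a replicate block, no count of calls moved by over 1.5 times, and the only member's call that changed was Cdkn2d after Rybp knockdown (-0.52, adjusted p 0.0307 in edgeR), which makes 5 members called in place of 4. With 2 libraries per group, genes with under about 10 counts, such as Cdkn2b in WT ESCs, are the least precise.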
